A study of Mus musculus with 4 samples.

Results

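The genes of the EGF receptor ligands and of the ERBB receptors were compared in small intestine from CFLARs Tg mice, set against wild-type mice. The set was named by symbol and held 10 genes, the 7 ligand genes Areg, Ereg, Hbegf, Tgfa, Egf, Btc and Epgn and the 3 receptor genes Egfr, Erbb2 and Erbb3. Of these, 9 had a probe set annotated to 1 gene symbol, among 19938 genes with such a probe set on the array, and Areg was not analysed here. The 9 genes had 1 such probe set each, and a probe set annotated to Erbb2 together with another gene was not used.

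Total RNA of the small intestine was hybridised to single-colour Affymetrix arrays, 2 per genotype, and all mice were of strain C57BL/6. The CFLARs Tg mice carried a transgene for CFLARs, the short form of the caspase-8 regulator that is encoded by Cflar and also called cFLIP, and gave the arrays titled XCFX (replicate 1) and XCFY (replicate 2). The wild-type mice gave the arrays titled XX (replicate 1) and XY (replicate 2). From these titles, XCFX and XX are taken as an XX-type pair, and XCFY and XY as an XY-type pair. The age of the mice, the stretch of intestine, the promoter that drives the transgene and the number of animals behind an array are not given in the sources used here. P-values therefore measure only the spread between these arrays, which may be technical in part. By its title the study concerned epithelial necroptosis and lethal ileitis in preterm mice, and the question here is how the transcripts of these genes differ between the genotypes. Cflar read 9.49 in XCFX and 9.30 in XCFY, against 9.34 in XX and 9.28 in XY, so its level did not set the CFLARs Tg arrays apart (adjusted p = 0.498). These values are from the probe set with the highest mean among 3 for Cflar, and the others were not examined here. Whether any of them reads the transgene is not known, so the genotypes rest on the labels.

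EGF receptor ligands are made as membrane-anchored precursors, which proteases such as ADAM17 cut to release the growth factor. EGFR binds all of the 7 ligands listed here, ERBB3 binds neuregulins and signals through a partner because its own kinase is weak, and ERBB2 has no known ligand and serves as the partner. In the intestine the pathway is known for driving epithelial proliferation and the repair of the mucosa after injury. Signalling through ERK induces its own inhibitors, among them the Sprouty proteins and the dual-specificity phosphatases.

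Of the ligand genes, 4 lie next to each other. In the RefSeq annotation of assembly GRCm38.p6, Epgn, Ereg, Areg and Btc follow each other in this order on chromosome 5, with no other protein-coding gene between the first and the last. The 3 other annotated genes in this stretch, Gm19610, Gm23092 and Gm19619, were not analysed here. Egfr and Erbb2 both lie on chromosome 11, and the remaining genes on chromosomes of their own.

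RefSeq promoter windows, of 250 bases before the start of the gene and 50 bases from it on, were at hand for 7 of the 10 genes. Those of Btc (GRCm38.p6, chr5:91402945-91403244, minus strand) and Erbb2 (GRCm38.p6, chr11:98412234-98412533, plus strand) are shown because Btc was called higher and Erbb2 lower, as described in the following paragraphs. Both strands were searched for the AP-1 element TGANTCA, the cyclic AMP response element TGACGTCA, the TATA box TATAAA, the CCAAT box CCAAT, the GC box GGGCGG and the STAT element TTCNNNGAA. None of these patterns contains another, and no matches overlapped. Capitals mark a match, which is a match of letters only.
Btc promoter: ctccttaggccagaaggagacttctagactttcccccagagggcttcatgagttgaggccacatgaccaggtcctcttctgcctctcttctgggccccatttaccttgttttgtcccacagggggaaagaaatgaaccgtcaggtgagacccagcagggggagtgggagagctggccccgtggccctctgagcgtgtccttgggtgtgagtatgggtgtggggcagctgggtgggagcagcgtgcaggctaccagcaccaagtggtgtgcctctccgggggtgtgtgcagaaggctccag
Erbb2 promoter: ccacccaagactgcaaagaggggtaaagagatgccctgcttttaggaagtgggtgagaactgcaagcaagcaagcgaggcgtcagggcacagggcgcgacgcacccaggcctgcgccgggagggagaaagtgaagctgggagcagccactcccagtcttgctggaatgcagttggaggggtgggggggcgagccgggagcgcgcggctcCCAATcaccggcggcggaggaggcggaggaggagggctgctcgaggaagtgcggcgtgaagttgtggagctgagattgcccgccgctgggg

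The Btc window held no match to these 6 patterns, and the Erbb2 window held 1, a CCAAT box, which 37.4% of all 32851 windows also held. The cyclic AMP response element, found in 1.79% of all windows, matched in Areg among the 7 genes. A TATA box, found in 13.6% of all windows, matched in Areg and Epgn, and a GC box, found in 35.7%, in Areg, Egfr and Tgfa. No member's window matched the AP-1 element (7.81% of all windows) or the STAT element (8.30%).

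The transcripts of 3 ligand genes, Ereg, Hbegf and Btc, were higher in CFLARs Tg intestine, by 1.43-fold to 2.91-fold, and those of the receptor genes Erbb2 and Erbb3 were lower. Over all 13956 genes fitted with limma, 19.3% passed an adjusted p of 0.05 (Benjamini-Hochberg, over all fitted genes), and the share with CFLARs Tg higher was 8.44% and with CFLARs Tg lower 10.9%. Of the 9 measured genes of the set, 8 passed the filter on low values and were fitted. Among these, 3 rose, 2 fell and 3 were not called. An unadjusted p under 0.05 was reached by 6 of the 8, of which 4 were higher and 2 lower, against 39.1% of all fitted genes (17.2% higher, 21.9% lower). In 7 of the 9 genes the arrays of the genotypes did not overlap, 5 with CFLARs Tg higher and 2 with CFLARs Tg lower, against 69.6% of all fitted genes (32% higher, 37.6% lower), so this separation alone was common on these arrays. In bulk tissue, a change in the number of cells that carry a transcript and a change in its amount per cell cannot be told apart.

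**Figure D1:**
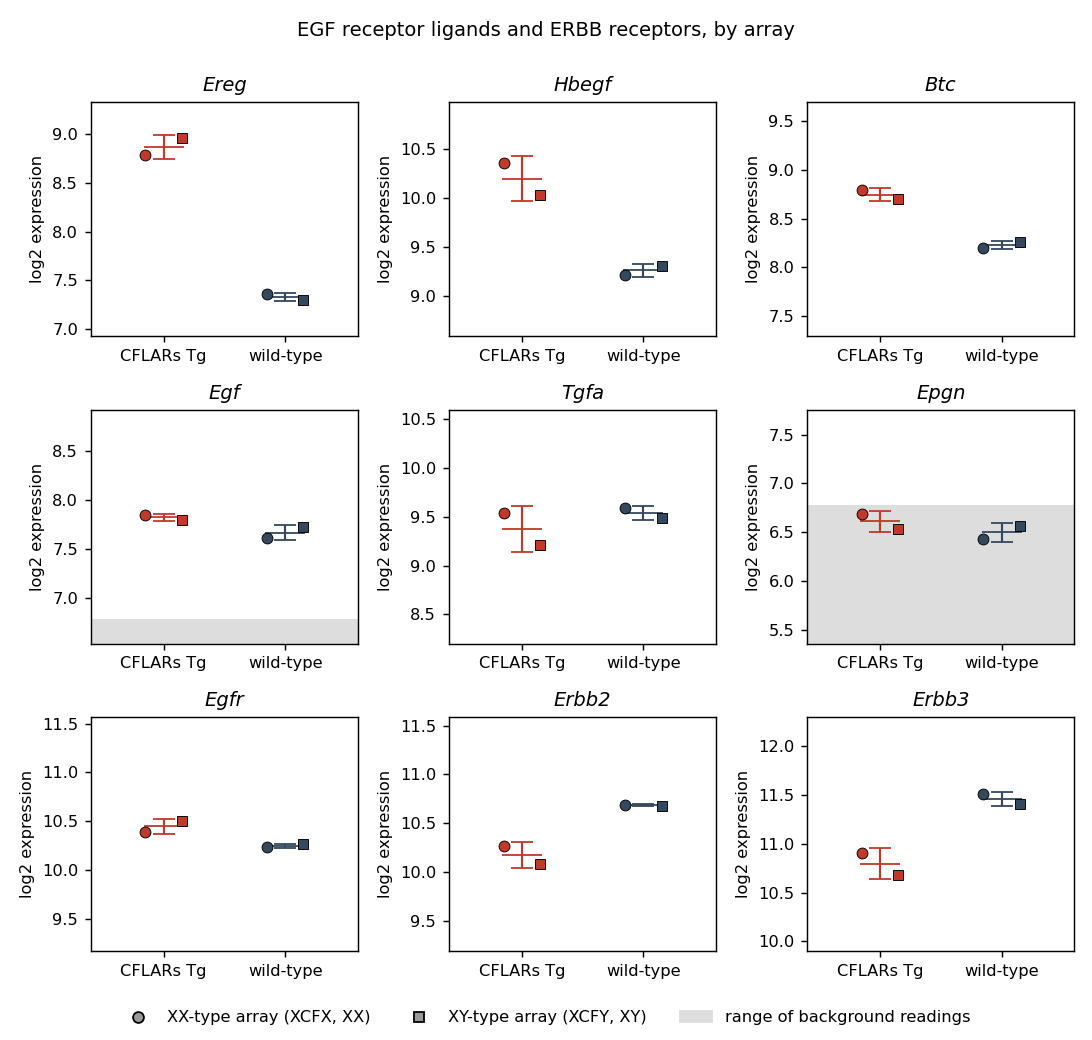
Log2 expression of the 9 measured genes on each array (vertical axes, each spanning the same number of log2 units), with CFLARs Tg left and wild-type right. Circles are XX-type and squares XY-type arrays, bars are the mean and SD of 2 arrays, and grey is the range of background readings (5.13 to 6.78). Ereg, Hbegf and Btc lie higher in both CFLARs Tg arrays, Erbb2 and Erbb3 lower, and all 4 Epgn readings fall in the grey range.

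Ereg encodes epiregulin, a ligand of EGFR and ERBB4. It read 8.78 in XCFX and 8.96 in XCFY, against 7.36 in XX and 7.30 in XY (log2). Both CFLARs Tg arrays stood well above both wild-type arrays, and the gap between the nearest arrays was 1.43. The mean was 8.87 ± 0.12 in CFLARs Tg and 7.33 ± 0.04 in wild-type (SD, n = 2 each), a difference of 1.54 (SE 0.08, limma adjusted p = 0.00505) or 2.91-fold. The wild-type mean of Ereg lay under the filter (7.48), so the gene entered the fit only through its CFLARs Tg level. Background readings, taken from Kdm5d, Uty and Eif2s3y, which are Y-linked, in XX-type arrays and from Xist in XY-type arrays, ran from 5.13 to 6.78, not far below wild-type Ereg, and a difference that reaches down towards background understates the change in RNA.

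Hbegf encodes heparin-binding EGF-like growth factor, which binds EGFR and ERBB4. It read 10.36 in XCFX and 10.03 in XCFY, against 9.21 in XX and 9.31 in XY. The groups did not overlap, and the difference was larger in the XX-type pair (1.15) than in the XY-type pair (0.73). Hbegf rose by 0.94 (SE 0.12, adjusted p = 0.0208), with means of 10.20 ± 0.23 in CFLARs Tg and 9.26 ± 0.07 in wild-type, a 1.92-fold difference.

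Btc encodes betacellulin, which also binds EGFR and ERBB4. It read 8.79 in XCFX and 8.70 in XCFY, against 8.20 in XX and 8.26 in XY. All 4 arrays kept to their genotype, with a gap of 0.44 between the nearest. The means were 8.75 ± 0.06 in CFLARs Tg and 8.23 ± 0.04 in wild-type, a rise of 0.52 (SE 0.06, adjusted p = 0.0197) or 1.43-fold. Of the neighbours on chromosome 5, Ereg and Btc were thus both called higher, and Epgn was not fitted.

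The other measured ligand genes gave no call. Egf, the gene of epidermal growth factor, read 7.85 in XCFX and 7.80 in XCFY, against 7.61 in XX and 7.72 in XY. These groups were apart by 0.08, and the difference of 0.16 (95% confidence interval -0.02 to 0.33) did not pass (adjusted p = 0.161). Tgfa, which encodes transforming growth factor alpha, a ligand of EGFR, read 9.54 in XCFX and 9.21 in XCFY, against 9.59 in XX and 9.49 in XY. The XCFX reading fell between the wild-type readings, so the groups overlapped, and the difference was -0.16 (interval -0.49 to 0.16, adjusted p = 0.383). It rested on the XCFY array: without CFLARs Tg replicate 1 the difference of Tgfa was -0.33, and without replicate 2 it was -0.0015. Epgn, the gene of epigen, another EGFR ligand, read 6.69 in XCFX and 6.54 in XCFY, against 6.43 in XX and 6.57 in XY. These readings lay within the range of background and overlapped, and Epgn was left out of the fit by the filter.

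Among the receptor genes, Erbb3 showed the larger fall. It read 10.91 in XCFX and 10.68 in XCFY, against 11.51 in XX and 11.41 in XY. The groups were apart by 0.51, and both pairs moved alike, by -0.61 in the XX-type and -0.73 in the XY-type pair. The means were 10.80 ± 0.16 in CFLARs Tg and 11.46 ± 0.07 in wild-type, and Erbb3 fell by 0.67 (SE 0.10, adjusted p = 0.0233), so that the wild-type level was 1.59 times that in CFLARs Tg.

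Erbb2 read 10.27 in XCFX and 10.08 in XCFY, against 10.69 in XX and 10.68 in XY. The wild-type arrays were nearly alike, and both CFLARs Tg arrays lay at least 0.41 lower. With means of 10.18 ± 0.13 in CFLARs Tg and 10.68 ± 0.01 in wild-type, Erbb2 fell by 0.51 (SE 0.08, adjusted p = 0.0262), and the wild-type level was 1.42 times that in CFLARs Tg.

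Egfr, the receptor gene of these ligands, was not called. It read 10.39 in XCFX and 10.50 in XCFY, against 10.23 in XX and 10.26 in XY. Both CFLARs Tg arrays were slightly higher, by a mean of 0.20 (95% confidence interval 0.03 to 0.37, adjusted p = 0.0941). The difference of Egfr was 0.25 without CFLARs Tg replicate 1 and 0.15 without replicate 2. Whether Egfr differed from Erbb2 or Erbb3 in its response was not tested.

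**Figure D2:**
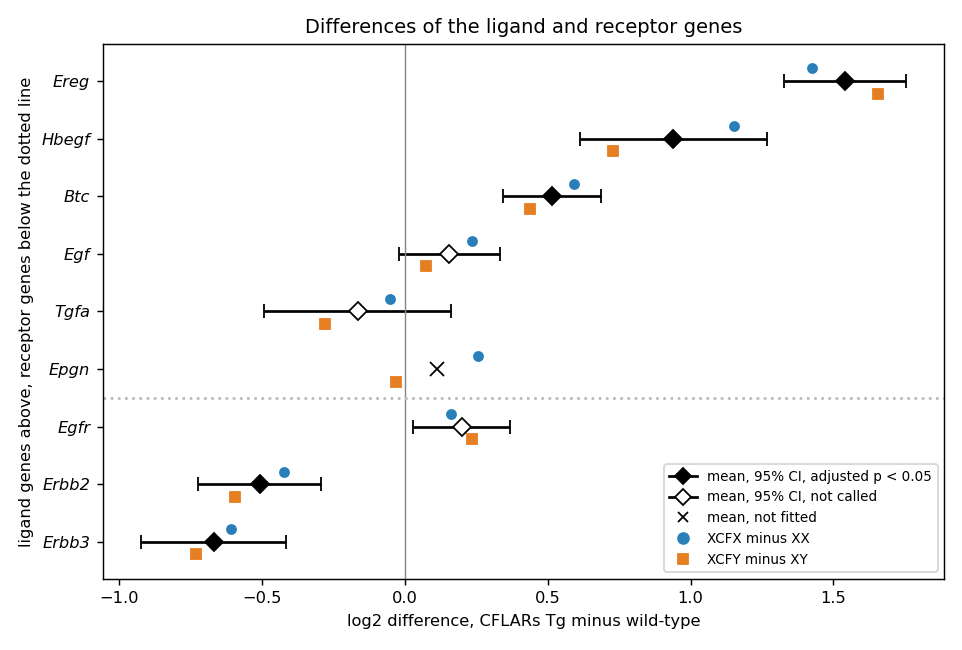
Log2 difference of CFLARs Tg minus wild-type (horizontal axis) for 6 ligand genes above and 3 receptor genes below the dotted line. Diamonds are means with 95% confidence intervals from limma, filled where the adjusted p passed, and circles and squares are the differences of the XX-type and XY-type pairs. The filled points run from -0.67 for Erbb3 to 1.54 for Ereg, and Epgn, marked by a cross, was not fitted.

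All 5 calls were lost when either wild-type array was left out, as were most calls over all fitted genes. The CFLARs Tg pair was then the sole source of spread. Without wild-type replicate 1 and replicate 2, Ereg differed by 1.57 and 1.51, Hbegf by 0.89 and 0.99 and Btc by 0.49 and 0.55. Erbb2 differed by -0.50 and -0.52 and Erbb3 by -0.62 and -0.72. When limma's treat required a log2 difference above 0.5, Ereg passed (adjusted p = 0.0177) and the other 4 called genes did not.

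Outside the set, Nrg1 was the neuregulin gene that passed the test. Neuregulins are ligands of ERBB3, ERBB4 or both. Nrg1 read 9.82 in XCFX and 10.12 in XCFY, against 9.04 in both wild-type arrays, and rose by 0.93 (SE 0.11, adjusted p = 0.0193) or 1.90-fold. Nrg2 (difference -0.11, adjusted p = 0.294) and Nrg3 (-0.04, adjusted p = 0.646) did not pass. Nrg2 differed by -0.17 without CFLARs Tg replicate 1 and by -0.05 without replicate 2. Nrg4 and Erbb4 were under the filter. Nrg4 read 6.74 in XCFX and 6.59 in XCFY, against 7.15 in XX and 7.10 in XY, and Erbb4 lay between 6.79 and 6.98 on all arrays. Of the 5 genes of this list 3 were fitted, with 1 higher and 0 lower (limma, and 0 lower at an unadjusted p under 0.05). Over all fitted genes, 8.44% were called higher and 10.9% lower.

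The genes of ligand release were mostly not called. Of 11 fitted genes 1 rose and 0 fell (limma), against 8.44% called higher and 10.9% lower over all fitted genes. At an unadjusted p under 0.05, 4 were higher and 0 lower, against 17.2% and 21.9% of all fitted genes. The median difference was 0.08, against -0.01 for all fitted genes. The gene that rose was Rhbdf2, which encodes iRhom2, a cofactor that brings ADAM17 to the cell surface. It read 9.16 in XCFX and 9.19 in XCFY, against 8.84 in XX and 8.85 in XY, a rise of 0.33 (SE 0.05, adjusted p = 0.0272). Adam10, a sheddase gene, differed by 0.26 (adjusted p = 0.0553, and 0.0487 with array medians set equal). The difference of Adam10 was 0.31 without CFLARs Tg replicate 1 and 0.20 without replicate 2. Timp1, an inhibitor of metalloproteinases, read 8.94 in XCFX and 9.97 in XCFY, against 8.21 in XX and 8.23 in XY. Its difference of 1.23 was not called (adjusted p = 0.0678), with the CFLARs Tg arrays far apart. The difference was 1.75 without CFLARs Tg replicate 1 and 0.72 without replicate 2. With title type as a block Timp1 was called (adjusted p = 0.0237).

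Receptor inhibitors and feedback genes of the pathway rose in part. Of 19 fitted genes 8 rose and 1 fell (limma), with a median difference of 0.24. Over all fitted genes, 8.44% were called higher and 10.9% lower. At an unadjusted p under 0.05, 9 of the 19 were higher and 2 lower, against 17.2% and 21.9% of all fitted genes. Dusp4 and Dusp6, which encode phosphatases of ERK and related kinases, rose by 0.67 (SE 0.07, adjusted p = 0.0179) and by 0.64 (SE 0.10, adjusted p = 0.0266). Dusp6 read 10.96 in XCFX and 10.68 in XCFY, against 10.18 in XX and 10.17 in XY. The Sprouty gene Spry4 rose by 0.50 (adjusted p = 0.0223) and the phosphatase gene Dusp5 by 0.47 (adjusted p = 0.0266). The other genes that rose were Spry2, Spred1, Spred2 and Ptpn1, and the gene that fell was Lrig2, all of them named after their values were seen. Spry2 was not called without a filter (adjusted p = 0.0581). Errfi1, whose product binds and inhibits the kinase domain of EGFR, differed by 0.28 (adjusted p = 0.152). Its difference was 0.12 without CFLARs Tg replicate 1 and 0.43 without replicate 2. Rnf41, a ubiquitin ligase gene for ERBB3, differed by -0.28 (adjusted p = 0.150). The difference of Rnf41 was -0.43 without CFLARs Tg replicate 1 and -0.14 without replicate 2.

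Among the 5 pathway lists, which were chosen with earlier results of these data known, the genes induced through ERK had the largest share of calls. Of 13 fitted genes 10 rose and 0 fell (limma), against 8.44% called higher and 10.9% lower over all fitted genes. At an unadjusted p under 0.05, 11 were higher and 0 lower, against 17.2% and 21.9% of all fitted genes. The median difference was 0.46. Plaur, the urokinase receptor gene, read 10.03 in XCFX and 9.99 in XCFY, against 7.60 in XX and 7.79 in XY, and rose by 2.31 (SE 0.08, adjusted p = 0.00230) or 4.97-fold. Phlda1 rose by 1.47 (SE 0.05, adjusted p = 0.00230), the transcription factor gene Egr1 by 1.29 (SE 0.09, adjusted p = 0.00899) and Ier3 by 0.95 (SE 0.07, adjusted p = 0.0103). Mcl1, a survival gene of the BCL2 family, differed by 0.20 (adjusted p = 0.0892) and Emp1 by 0.12 (adjusted p = 0.300). The wild-type mean of Etv4, another of the 10 genes that rose, lay under the filter. Etv4 thus entered the fit, and this count, only through its CFLARs Tg level. These genes also respond to other stimuli. Without either wild-type array Plaur and Phlda1 still passed.

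The transduction genes below the receptors were mostly not called. Of 31 genes listed, 25 were fitted and 6 were not analysed here. Among the fitted genes 3 fell and 0 rose (limma), against 10.9% called lower and 8.44% higher over all fitted genes. At an unadjusted p under 0.05, 2 were higher and 6 lower, against 17.2% and 21.9% of all fitted genes. The median difference was -0.07. The genes that fell were Plcg1, the gene of phospholipase C gamma 1, by 0.32 (adjusted p = 0.0302), and those of the docking proteins Gab1 (by 0.29, adjusted p = 0.0372) and Gab2 (by 0.28, adjusted p = 0.0412). Gab1 and Gab2 were not called with title type as a block (adjusted p = 0.0521 and 0.0523), and Gab2 not without a filter (adjusted p = 0.0516). The phosphoinositide 3-kinase subunit genes Pik3r2 (-0.38, adjusted p = 0.0659) and Pik3cb (0.24, adjusted p = 0.0624) did not pass. Pik3r2 differed by -0.51 without CFLARs Tg replicate 1 and by -0.26 without replicate 2. Pik3cb was called after quantile normalization (adjusted p = 0.0485). The difference of Pik3cb was 0.27 without CFLARs Tg replicate 1 and 0.21 without replicate 2.

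Over the 5 lists, 71 of 80 genes were fitted, of which 20 rose and 4 fell, and 33.8% were called, against 19.3% of all fitted genes. The lists were chosen with earlier results of these data known, so these shares are no test of the pathway. With single arrays left out, the number of these genes that passed rose and fell with that of all fitted genes.

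**Figure D3:**
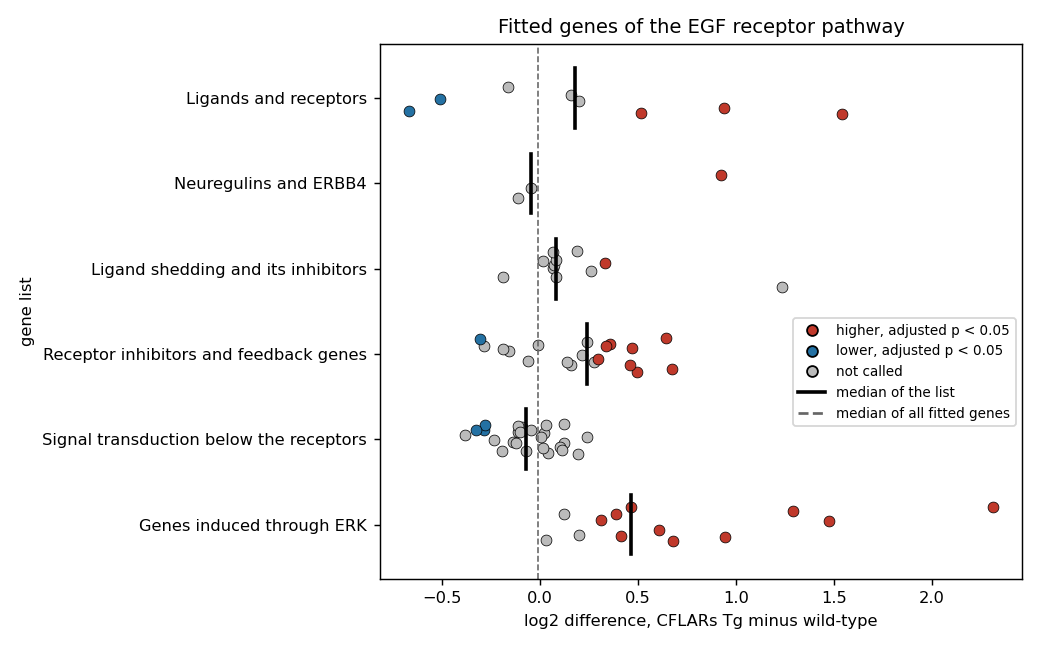
Log2 difference of CFLARs Tg minus wild-type (horizontal axis) for each fitted gene of the set and of the 5 pathway lists (vertical axis, with points spread within a row for legibility). Red and blue points passed an adjusted p of 0.05, black bars are list medians, and the dashed line is the median of all fitted genes (-0.01). The ERK-induced genes have a median of 0.46 and the transduction genes one of -0.07.

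Neutrophil markers were higher in CFLARs Tg, and few markers were called in the other lists besides the epithelial one. The linear signals of 7 neutrophil markers summed to 2645.1 in XCFX and 5965.5 in XCFY, against 911.2 in XX and 956.8 in XY. The wild-type means of the 6 fitted markers lay under the filter, so these entered the fit only through their CFLARs Tg level, and Mpo was not fitted. With no filter, limma called 5 of the 7 higher, against 1058 of all 19938 genes called higher (12% called in either direction). S100a8 (adjusted p = 0.0516) and Mpo (adjusted p = 0.225) did not pass. For 10 monocyte and macrophage markers the sums were 7352.3 in XCFX and 10238.1 in XCFY, against 6255.8 in XX and 6524.0 in XY, and 0 of 9 fitted markers passed (limma, 4 at an unadjusted p under 0.05). Hbegf, Btc and Plaur were lower in XCFY than in XCFX, whereas Ereg, Nrg1 and both of these marker sums were higher in XCFY. Some of these gaps were small, such as that of Plaur, at 10.03 in XCFX and 9.99 in XCFY. All are differences between single arrays and have no test. Ereg, Plaur and Nrg1 are also transcribed outside the epithelium. The part of other cells in the rise of these genes, and in that of Hbegf and Btc, was not tested.

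The defining markers of epithelium were well measured. The sums of 8 epithelial markers were 47645.8 in XCFX and 45948.5 in XCFY, against 37127.3 in XX and 38674.4 in XY. Of the 8, 3 rose and 0 fell (limma, 5 higher and 1 lower at an unadjusted p under 0.05). Over all fitted genes, 8.44% were called higher and 10.9% lower. Krt20 rose by 1.35 (adjusted p = 0.0202) and Krt18 by 0.64 (adjusted p = 0.0150). Krt19 differed by 0.50 (adjusted p = 0.0803), a difference called with title type as a block (adjusted p = 0.0276). The difference of Krt19 was 0.71 without CFLARs Tg replicate 1 and 0.29 without replicate 2. The markers that are not keratins, named after their values were seen, did not pass: Epcam differed by -0.08, Vil1 by -0.08, Cdh1 by 0.16 and Cdx2 by -0.21. Without CFLARs Tg replicate 1, Vil1 differed by -0.18 and Cdx2 by -0.29. The 4 keratins summed to 29754.2 in XCFX and 29522.9 in XCFY, against 19947.3 in XX and 21226.8 in XY. The 4 other markers summed to 17891.6 in XCFX and 16425.7 in XCFY, against 17180.0 in XX and 17447.6 in XY, and these groups overlapped. The keratin sum was thus higher in both CFLARs Tg arrays, and the sum of the other markers was not. Of these other markers, Cdh1 lay higher in both CFLARs Tg arrays and Cdx2 lower. The sum of all 8 was not used as a measure of epithelial content. The part of epithelial content in these results was not tested.

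Mast cell and basophil markers summed to 2311.8 in XCFX and 2591.8 in XCFY, against 1973.8 in XX and 1823.4 in XY, with 3 of 8 within the range of background on all arrays, and 1 of 4 fitted markers rose. Paneth cell markers summed to 2649.2 in XCFX and 5845.2 in XCFY, against 1380.4 in XX and 2265.2 in XY, and 0 of 4 fitted markers passed (limma, 3 at an unadjusted p under 0.05). The 3 markers of Brunner's glands were all under the filter and summed to 401.9 and 380.5 in CFLARs Tg, against 385.2 and 391.4 in wild-type. Fibroblast, smooth muscle, endothelial and lymphocyte sums in the CFLARs Tg arrays lay between 0.86 and 1.16 times the wild-type mean. Both endothelial sums were below both wild-type sums, and 1 of 4 fitted endothelial markers fell, Kdr, by 0.30 (limma adjusted p = 0.0462). The fibroblast, smooth muscle and lymphocyte lists held no called marker. Of 12 lymphocyte markers 9 were measured and 3 fitted, and 2 lay within the range of background on all arrays. Over all fitted genes, 8.44% were called higher and 10.9% lower. The part of these cell types in the results was not tested.

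**Figure D4:**
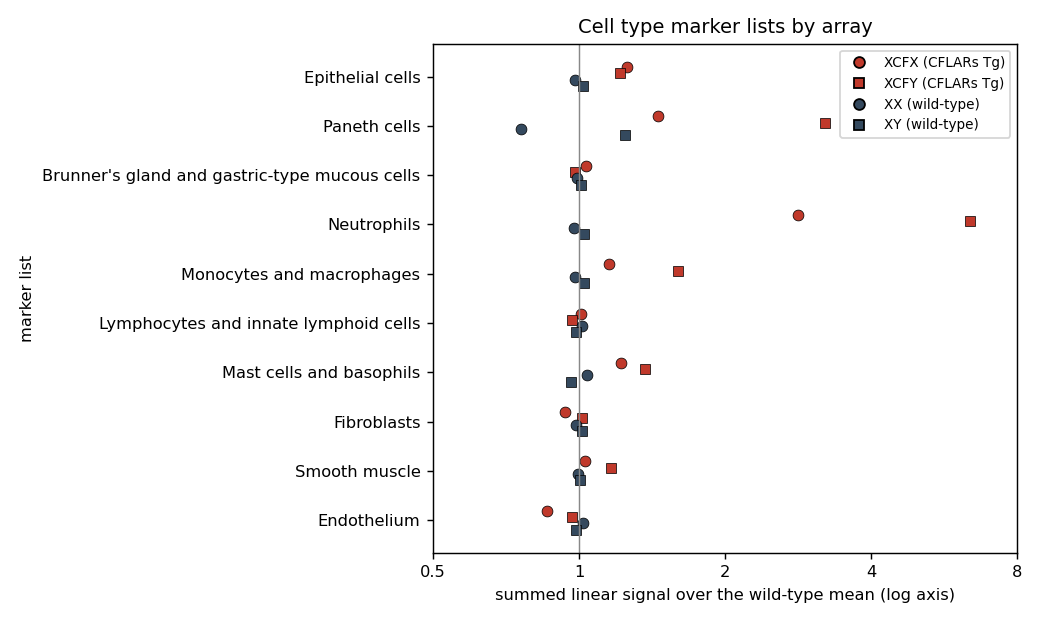
Summed linear signal of each marker list on each array, divided by the mean of the wild-type arrays (horizontal axis, logarithmic), for the 10 marker lists on the vertical axis. Red points are CFLARs Tg arrays and dark points wild-type arrays, with circles for XX-type and squares for XY-type. Neutrophil markers reached 2.83 and 6.39 times the wild-type mean in XCFX and XCFY.

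The genes whose pattern over the 4 arrays was most like that of Ereg, the gene of the set with the largest difference, were Icam1, Nfkbia, AW112010, Phlda1 and Ifi205. After each gene's wild-type mean was subtracted, their mean absolute gap to Ereg ran from 0.05 for Icam1 to 0.07 for Ifi205 (log2, over 4 arrays). Of these, Phlda1 differed by 1.47 and Nfkbia by 1.56, against 1.54 for Ereg, a likeness that follows from how the genes were picked.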

How the data were processed

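Per the labels' protocols, biotinylated cRNA was prepared from total RNA of the small intestine by the array manufacturer's method. The authors deposited 1 log2 value per array for each of 28856 probe sets. How these were summarised, background-corrected and normalized is not given in the sources used here. Array medians lay between 8.31 and 8.33, and the values were used as deposited.

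The platform annotation gave 1 symbol for 21789 probe sets, several for 1621 and none for 5446. RefSeq gene identifiers matched 21698 and changed 0 symbols. Each gene was represented by its probe set with the highest mean. The lowest 30% of genes by mean were left out (under 7.48). CFLARs Tg was compared with wild-type with limma 3.58.1 in R 4.3.3 (lmFit, eBayes, no covariates; 2 residual and 2.64 prior degrees of freedom), with Benjamini-Hochberg adjustment at 0.05, after a test on simulated data. The number of arrays limits the precision. Differences of 1 array pair have no test.

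The members and lists were chosen with earlier results of these data known. The text names all members and, per pathway list, up to 4 called genes and up to 2 others with the largest differences, for the marker lists up to 3 genes each, the genes between neighbouring members, and the 5 genes closest to the member with the largest difference; exceptions are marked in the text. Linear signals of markers are 2 to the power of the log2 value. Other scalings, filters, probe set rules, moderation, a title-type block, a minimum difference and leaving out each array were tried.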

Additional observations from a re-analysis of the deposited data

Results flagged for a closer look

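Among the genes named in the text, 5 had array pairs that moved in opposite directions. Epgn differed by 0.26 in the XX-type pair (XCFX minus XX) and by -0.0312 in the XY-type pair (XCFY minus XY), with all readings within the range of background. Nrg3 differed by -0.10 in the XX-type pair and by 0.0115 in the XY-type pair. Erbb4 differed by 0.05 in the XX-type pair and by -0.1685 in the XY-type pair. The epithelial markers Epcam (0.03 in the XX-type and -0.1827 in the XY-type pair) and Vil1 (0.03 and -0.1794) did so too. Over the 5 pathway lists, 12 of 74 measured genes had pairs of opposite sign, Nrg3 and Erbb4 among them. The difference between the pairs was not tested, since each pair holds 1 array per genotype.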

How the results depend on the processing

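Of 52 genes followed under the 12 alternatives, 4 changed sign where a value was given, none of them a ligand or receptor gene of the set or called as reported. With 1 array left out, Epcam ran from -0.1541 to 0.0029, Vil1 from -0.1825 to 0.0306, Cflar from -0.0076 to 0.1774 and Erbb4 from -0.1516 to 0.0364. Genes under a filter had no value there, and Epgn, Nrg4 and Erbb4 had values only with no filter and with an array left out. Quantile normalization and equal array medians, which moved the median difference of all genes by 0.0075 and 0.011, left the same 5 members called, as did no filter, the mean of all probe sets, eBayes with trend and robust, and title type as a block. With the lowest 50% of genes left out, 3 members were called (1 higher), because Ereg, Egf and Btc were no longer fitted. Against a minimum log2 difference of 0.5, 63 genes passed (53 higher, 10 lower), with 1 member (1 higher, 0 lower) and 3 pathway genes (3 higher, 0 lower). With title type as a block 2 pathway genes were lower, in place of 4. Leaving out 1 array gave 40 to 6559 genes (34 to 3112 higher, 3 to 3447 lower), 0 to 7 members (0 to 4 higher, 0 to 3 lower) and 2 to 42 pathway genes (2 to 29 higher, 0 to 13 lower), and the low ends came without a wild-type array. No paired analysis was possible by replicate number because these numbers follow accession order and pair no samples, so the block by title type is the pairing that was tried. The cause of the other shifts was not tested. Signals near background limit Epgn, Nrg4 and Erbb4, and 2 arrays a genotype limit the rest.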
